A study of Homo sapiens with 6 samples.

Results

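The genes described here are the human collagen chains and the enzymes and helpers that fold, process and cross-link them: every gene whose symbol has the form COLnAn (44 genes) and 15 modifying genes, namely P4HA1, P4HA2, P4HA3, P4HB, PLOD1, PLOD2, PLOD3, LOX, LOXL1, LOXL2, LOXL3, LOXL4, SERPINH1, PCOLCE and BMP1. Together they are 59 of the 62700 genes in the deposited table. RNA was sequenced from A549, a long-established epithelial line from a human lung adenocarcinoma, kept in RPMI-1640 with fetal bovine serum. The control group, sgControl, was labelled WT and had 3 libraries, and the sgH2AC19 group was labelled as knockout derivatives and had 3 libraries. H2AC19 encodes a replication-dependent histone H2A, and the series title places it in angiogenesis and lung adenocarcinoma progression.

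The labels do not say whether the derivatives were 1 clone or a pool, nor whether the replicates were separate cultures, so the p-values below measure the spread between libraries, which may be technical. H2AC19 (ENSG00000288859) and its near-identical copy H2AC18 were listed at 0 FPKM in all 6 libraries, so the knockout could not be checked, and only the labels say which group is which. FPKM count fragments relative to gene length and to the depth of the library. The depth, recovered from the FPKM themselves, was between 35681162 and 45738439 reads per library. The epithelial markers KRT8 and KRT18 were between 220 and 415 FPKM in every library, and 7 of 8 epithelial markers passed the filter on low values (at least 1 FPKM in at least 3 libraries).

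Collagens are secreted triple helices built from 3 alpha chains. Fibrillar collagens (types I, II, III, V and XI among them) form the tensile fibers of the interstitial matrix, and type IV collagen forms the network of the basement membrane on which epithelial and endothelial cells rest. In the endoplasmic reticulum, prolyl 4-hydroxylases stabilize the helix, lysyl hydroxylases prepare lysines for cross-linking and glycosylation, and the chaperone HSP47 (SERPINH1) binds the folded helix. Outside the cell, proteinases remove the propeptides and lysyl oxidases cross-link the fibers.

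The 6 type IV chain genes lie in 3 head-to-head pairs, in which 2 genes start close together and are read in opposite directions. Their start regions are shown because the chains of each pair gave different values in these libraries. COL4A1 and COL4A2 on chromosome 13 start 127 bases apart, with 126 bases between the start sites. COL4A6 and COL4A5 on chromosome X start 380 bases apart, and COL4A4 and COL4A3 on chromosome 2 start 419 bases apart, counted from the first start site that RefSeq lists for each gene. All sequences are from RefSeq on GRCh38.p14 and run 5′ to 3′ on the strand named. The first is the plus strand of chr13:110307128-110307313, with the bases between both start sites in capitals and 30 flanking bases on each side in lower case.
COL4A1-COL4A2: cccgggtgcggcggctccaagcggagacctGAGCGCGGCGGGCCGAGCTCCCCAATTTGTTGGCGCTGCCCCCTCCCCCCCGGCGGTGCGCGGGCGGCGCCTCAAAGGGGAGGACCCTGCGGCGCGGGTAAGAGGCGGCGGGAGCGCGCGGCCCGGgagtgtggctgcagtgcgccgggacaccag
The next 4 are the 250 bases before each start site: COL4A6 on the minus strand (chrX:108439459-108439708), COL4A5 on the plus strand (chrX:108439588-108439837), COL4A4 on the minus strand (chr2:227164206-227164455) and COL4A3 on the plus strand (chr2:227164374-227164623). Capitals mark the bases that both windows of a pair cover, 121 for COL4A6 and COL4A5 and 82 for COL4A4 and COL4A3. The capitals of one member are therefore the reverse complement of those of the other.
COL4A6: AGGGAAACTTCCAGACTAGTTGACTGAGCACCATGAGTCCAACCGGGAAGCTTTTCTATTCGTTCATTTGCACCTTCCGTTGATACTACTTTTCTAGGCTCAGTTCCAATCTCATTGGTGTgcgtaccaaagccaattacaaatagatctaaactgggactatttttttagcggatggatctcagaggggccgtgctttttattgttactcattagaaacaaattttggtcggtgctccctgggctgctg
COL4A5: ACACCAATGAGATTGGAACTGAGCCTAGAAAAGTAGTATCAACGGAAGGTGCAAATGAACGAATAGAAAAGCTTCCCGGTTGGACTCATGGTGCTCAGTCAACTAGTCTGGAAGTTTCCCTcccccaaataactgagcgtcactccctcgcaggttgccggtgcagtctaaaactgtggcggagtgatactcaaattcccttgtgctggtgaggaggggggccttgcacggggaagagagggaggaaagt
COL4A4: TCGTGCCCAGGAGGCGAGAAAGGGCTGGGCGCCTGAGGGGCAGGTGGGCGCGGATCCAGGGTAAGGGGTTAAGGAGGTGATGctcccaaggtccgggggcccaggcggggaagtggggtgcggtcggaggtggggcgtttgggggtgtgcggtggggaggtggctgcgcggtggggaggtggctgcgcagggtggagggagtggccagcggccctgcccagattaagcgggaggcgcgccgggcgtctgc
COL4A3: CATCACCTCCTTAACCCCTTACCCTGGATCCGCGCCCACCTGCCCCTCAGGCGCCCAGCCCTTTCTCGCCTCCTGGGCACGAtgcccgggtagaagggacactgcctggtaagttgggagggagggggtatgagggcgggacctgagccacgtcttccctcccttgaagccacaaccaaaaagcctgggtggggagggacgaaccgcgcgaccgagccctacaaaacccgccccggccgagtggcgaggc

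Of the 59 genes, 44 had a promoter entry, among them 22 of the 28 that passed the filter. A search of the 250 bases before the start site, on both strands, found the GC box GGGCGG in 16 of the 22, against 42.3% of all 27305 promoters searched, many of them of non-coding genes. The CCAAT box was in 8 of 22 (33.0% of all promoters) and TATAAA in 4 (11.1%). The AP-1 motif TGANTCA was in 0 of 22 (6.60%), and the core of the hypoxia response element, ACGTG, in 5 (18.7%). LOX, a known hypoxia-responsive gene, held 4 matches to ACGTG, more than any other of the 22, and its promoter (minus strand, chr5:122078260-122078509) is shown for that reason, with every match to any of the 5 motifs in capitals. A match is a description of letters and not of a bound site.
LOX: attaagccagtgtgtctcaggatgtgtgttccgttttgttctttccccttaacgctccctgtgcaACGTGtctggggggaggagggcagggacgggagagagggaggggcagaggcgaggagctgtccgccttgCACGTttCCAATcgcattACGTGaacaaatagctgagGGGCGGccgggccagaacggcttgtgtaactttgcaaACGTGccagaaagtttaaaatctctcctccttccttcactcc

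In sgH2AC19 the fibrillar chains COL5A2, COL5A1, COL27A1 and COL1A1 and the fiber-associated chain COL12A1 rose, COL6A1 and COL6A2 of type VI collagen fell, 3 of the 5 type IV chains tested rose, and among the modifying enzymes P4HA3 rose while LOXL2 and LOX fell. Of the 28 members tested, 10 rose and 4 fell in the limma fit over 12871 genes (adjusted p below 0.05), and 14 were not called. The 10 include COL1A1, which passed the filter only in the group where it was high. That is 14 of 28, where 23.1% of all genes tested were called, 12.0% as higher and 11.0% as lower. The median log2 fold change was 0.11 over the 28 members, 0.22 over the 15 chains and 0.04 over the 13 modifying genes, beside -0.01 over all genes tested. Fold changes were fitted as log2(FPKM + 1), and the 1 added makes those of low genes too small. RNA levels were measured in bulk, so a change in every cell and a change in the share of cells with the transcript cannot be told apart.

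Of the 28 members tested, 13 were higher in all 3 sgH2AC19 libraries with no overlap of the groups (21.5% of all genes tested). Another 6 of the 28 were lower with no overlap, a share near that of all genes tested (21.7%). One library stood apart within its group: sgH2AC19 replicate 3 was the highest of the 3 in 22 of the 28 members tested (78.6%), against 29.2% of all genes tested. It was the highest in all 7 hydroxylases.

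**Figure D1:**
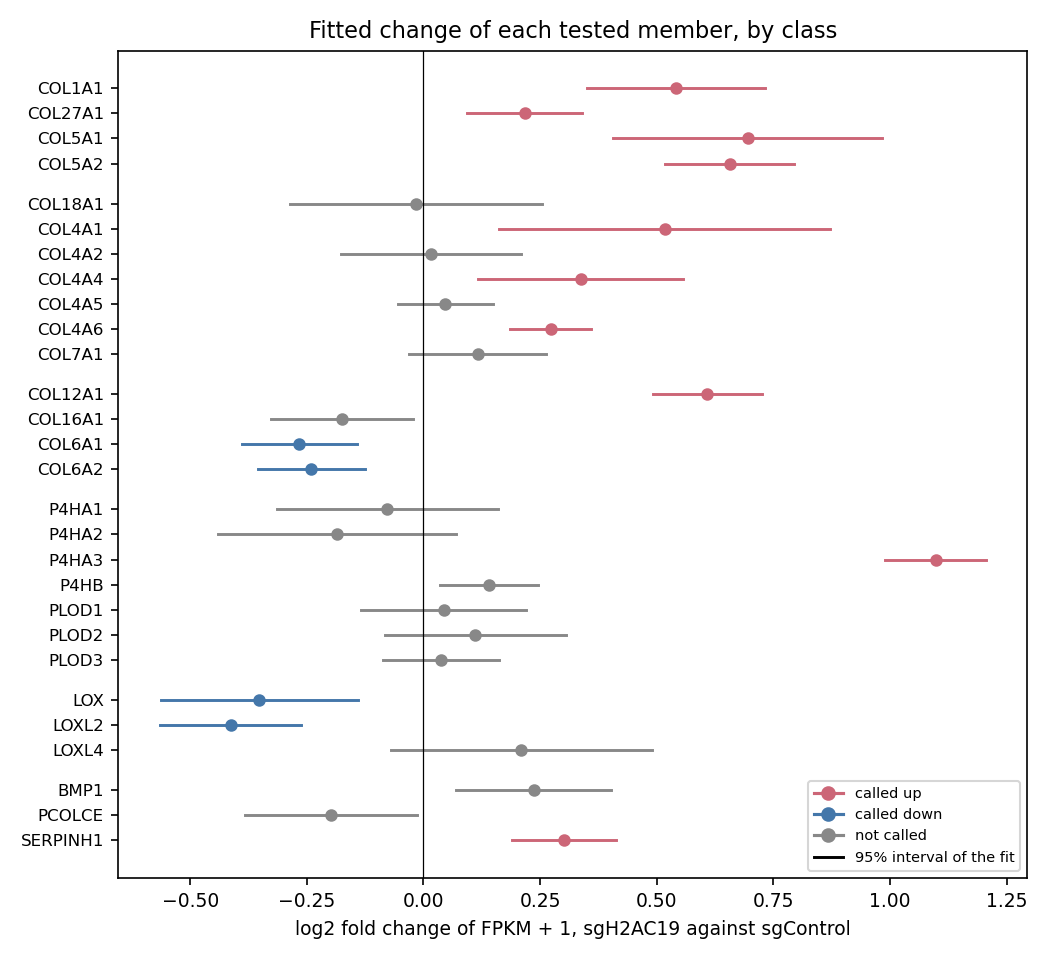
Fitted log2 fold change of FPKM + 1, sgH2AC19 against sgControl, for the 28 members tested, grouped by class, with bars for the 95% interval of the limma fit and color for the call. P4HA3 lies farthest to the right at 1.10 and LOXL2 farthest to the left at -0.41.

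Of the 11 fibrillar chains 4 passed the filter, 1 of them (COL1A1) through the sgH2AC19 group alone. COL5A2, COL5A1 and COL27A1 rose, and COL1A1 was called higher under that limit. COL5A2, the alpha 2 chain of type V collagen, which helps to nucleate collagen fibers, was the most abundant chain of all. Its FPKM were 47.8, 51.1 and 49.8 in sgControl and 73.6, 78.3 and 84.6 in sgH2AC19, with a fitted log2 change of 0.66 (SE 0.059, limma adjusted p = 0.000926). Every sgH2AC19 library was above every sgControl library. COL5A1, its partner in the common type V heterotrimer, had 14.4, 15.0 and 15.5 FPKM in sgControl and 22.3, 22.0 and 30.9 in sgH2AC19. Its log2 fold change was 0.69 (SE 0.12, limma adjusted p = 0.00881), and 0.54 without sgH2AC19 replicate 3, the library with the highest level. The ratio of COL5A2 to COL5A1 was 3.33 ± 0.0981 in sgControl and 3.20 ± 0.425 in sgH2AC19 (SD, n = 3 each), and its groups overlapped (exact permutation p = 0.8, two-sided).

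COL27A1, a fibrillar chain known from cartilage, had 2.95, 2.96 and 2.88 FPKM in sgControl and 3.70, 3.39 and 3.62 in sgH2AC19, and its log2 fold change was 0.22 (SE 0.053, limma adjusted p = 0.0256). The groups did not overlap, but the rise was small and lost the call in 6 of 13 alternatives. COL1A1, the alpha 1 chain of type I collagen, the main collagen of bone, skin and scar, was near the limit of the filter. It had 0.585, 0.711 and 0.627 FPKM in sgControl and 1.30, 1.34 and 1.53 in sgH2AC19, a 2.17-fold ratio of the group means (log2 fold change of FPKM + 1 0.54, SE 0.081, limma adjusted p = 0.00484). Only its sgH2AC19 libraries reached 1 FPKM, so COL1A1 could not have been called lower under that filter. With all genes above 0 FPKM tested, which asks nothing of either group, it was called as well (limma adjusted p = 0.0235). COL1A2, which supplies the other chain of the usual type I heterotrimer, had at most 2 reads in any library.

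**Figure D2:**
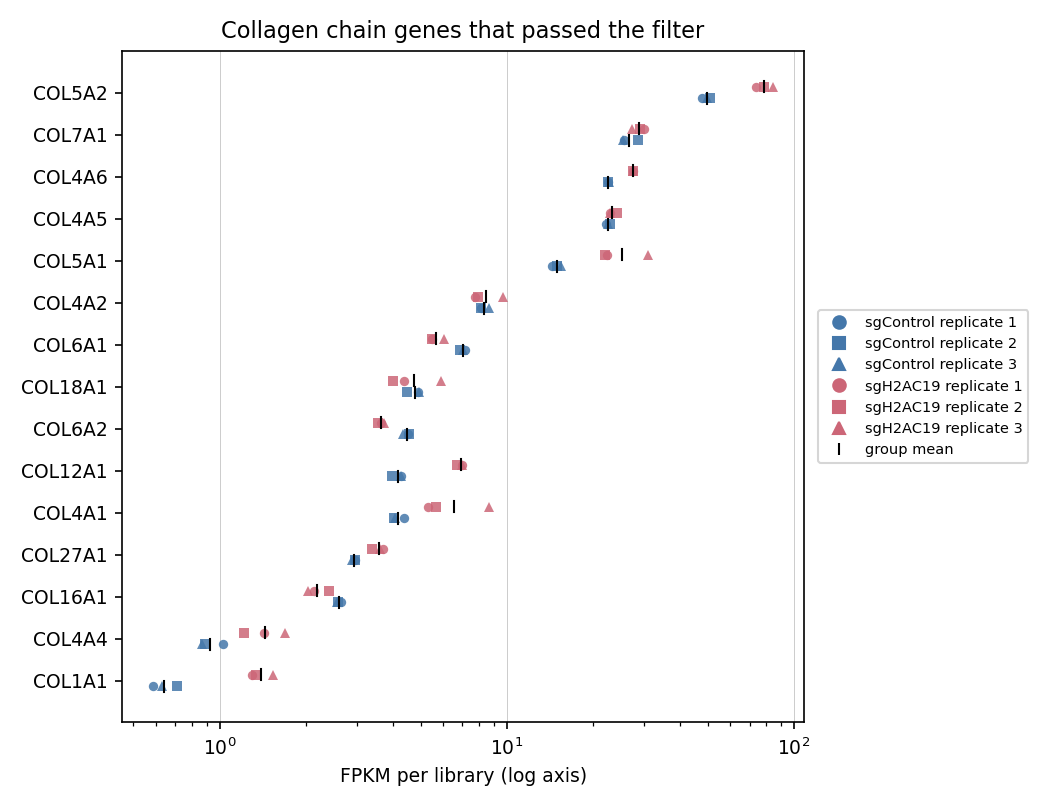
FPKM of the 15 collagen chain genes that passed the filter (log axis), 1 point per library and a tick at each group mean, ordered by level in sgControl. COL5A2 is the highest in both groups, and sgH2AC19 replicate 3 lies to the right of the other sgH2AC19 libraries for COL5A1 and COL4A1.

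Type IV collagen is assembled from 3 kinds of trimer, of which the one made of COL4A1 and COL4A2 is found in nearly all basement membranes. COL4A1 had 4.39, 4.05 and 4.09 FPKM in sgControl and 5.32, 5.65 and 8.67 in sgH2AC19, with a fitted log2 change of 0.52 (SE 0.15, limma adjusted p = 0.0470). The groups did not overlap, sgH2AC19 replicate 3 was far above the other sgH2AC19 libraries, and without it the log2 fold change was 0.33 (limma adjusted p = 0.00910). The call was lost in 7 of 13 alternatives, with adjusted p from 0.0575 to 0.172. COL4A2, which starts 127 bases away on the other strand, had 8.12, 8.09 and 8.68 FPKM in sgControl and 7.74, 7.90 and 9.66 in sgH2AC19. Its groups overlapped, and its log2 fold change was 0.02 (95% interval -0.18 to 0.21, limma adjusted p = 0.912). The ratio of COL4A1 to COL4A2 was 0.504 ± 0.0354 in sgControl and 0.767 ± 0.114 in sgH2AC19 (SD, n = 3 each), and was higher in every sgH2AC19 library than in any sgControl library (exact permutation p = 0.1, the smallest that 3 against 3 libraries allow, and 0.167 adjusted over 5 ratios).

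The COL4A5 and COL4A6 chains form the trimer of, among others, the basement membranes of smooth muscle and some epithelia. COL4A6 had 22.6, 22.5 and 22.7 FPKM in sgControl and 27.5, 27.4 and 27.5 in sgH2AC19. The libraries of each group nearly coincided, and the log2 fold change was 0.27 (SE 0.037, limma adjusted p = 0.00340). COL4A5 had 22.2, 22.9 and 22.5 FPKM in sgControl and 22.9, 24.3 and 22.8 in sgH2AC19, a log2 fold change of 0.05 (95% interval -0.06 to 0.15, limma adjusted p = 0.474). Both genes were thus at the same level in sgControl, and in sgH2AC19 the ratio of COL4A6 to COL4A5 moved from 1.00 ± 0.0177 to 1.18 ± 0.0438 (exact permutation p = 0.1, the smallest possible here).

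COL4A4 and COL4A3, whose trimer with COL4A5 makes the glomerular and alveolar basement membrane, were low. COL4A4 had 1.02, 0.888 and 0.867 FPKM in sgControl and 1.42, 1.21 and 1.68 in sgH2AC19, with a fitted log2 change of 0.34 (SE 0.094, limma adjusted p = 0.0399) that lost the call in 7 of 13 alternatives, one of them the fit without sgH2AC19 replicate 3 (adjusted p = 0.0706). COL4A3 had 0.617, 0.632 and 0.532 FPKM in sgControl and 0.514, 0.491 and 0.544 in sgH2AC19, under the filter. Its groups overlapped, whereas those of COL4A4 did not. The ratio of COL4A4 to COL4A3 was 1.57 ± 0.139 in sgControl and 2.78 ± 0.307 in sgH2AC19 (exact permutation p = 0.1). In each of the 3 pairs the ratios of the groups were separated, with the minus-strand gene (COL4A1, COL4A6, COL4A4) higher relative to its plus-strand neighbor in sgH2AC19, while the ratios COL5A2 to COL5A1 and COL6A1 to COL6A2 overlapped between groups. None of the 5 ratios passed the threshold of 0.05, which this number of libraries cannot reach.

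**Figure D3:**
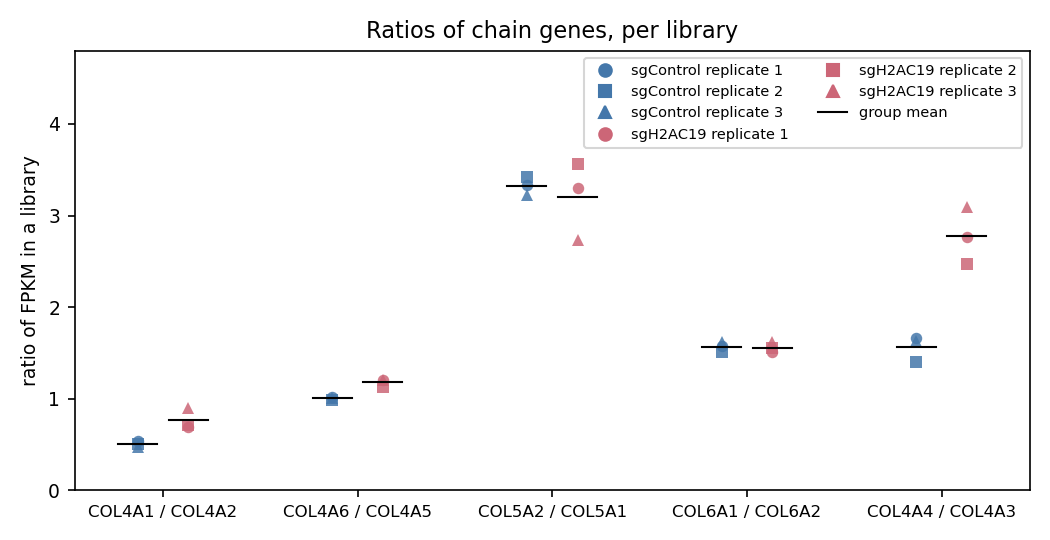
Ratio of FPKM within each library for 5 pairs of chain genes, 1 point per library and a line at each group mean. The sgH2AC19 points lie above the sgControl points for the 3 type IV pairs and among them for COL5A2 to COL5A1 and COL6A1 to COL6A2.

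Other basement membrane chains showed no called change. COL7A1, the chain of the anchoring fibrils beneath epithelia, was the second most abundant chain in sgControl, with 25.5, 28.7 and 25.4 FPKM, and had 30.03, 29.1 and 27.3 in sgH2AC19 (log2 fold change 0.12, 95% interval -0.03 to 0.26, limma adjusted p = 0.218). COL18A1, the source of the antiangiogenic fragment endostatin, had 4.91, 4.47 and 4.94 FPKM in sgControl and 4.39, 4.01 and 5.88 in sgH2AC19 (log2 fold change -0.02, 95% interval -0.29 to 0.25, limma adjusted p = 0.937). Its sgH2AC19 libraries lay on both sides of the sgControl libraries. COL15A1, the relative of COL18A1, stayed under the filter, with at most 0.376 FPKM.

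Among the remaining chains, COL12A1 rose, and COL6A1 and COL6A2, the type VI chains that passed the filter, fell. COL12A1 encodes a chain that binds the surface of collagen fibers, and had 4.29, 3.97 and 4.28 FPKM in sgControl and 6.97, 6.71 and 7.0 in sgH2AC19. Its log2 fold change was 0.61 (SE 0.050, limma adjusted p = 0.000707), with the groups far apart. Type VI collagen forms beaded filaments around cells. COL6A1 had 7.14, 6.88 and 7.03 FPKM in sgControl and 5.46, 5.5 and 6.05 in sgH2AC19. The log2 fold change was -0.27 (SE 0.052, limma adjusted p = 0.0127). COL6A2 had 4.53, 4.57 and 4.34 FPKM in sgControl and 3.63, 3.55 and 3.74 in sgH2AC19. The log2 fold change was -0.24 (SE 0.049, limma adjusted p = 0.0141). Neither gene's groups overlapped, and the ratio of COL6A1 to COL6A2 was 1.57 ± 0.0564 in sgControl and 1.56 ± 0.0567 in sgH2AC19 (exact permutation p = 0.7). The third chain of the usual type VI trimer, COL6A3, was not tested, with 3, 1 and 4 reads in sgControl and 15, 7 and 5 in sgH2AC19, higher in every sgH2AC19 library. COL16A1, a fiber-associated chain, had 2.64, 2.58 and 2.56 FPKM in sgControl and 2.13, 2.40 and 2.02 in sgH2AC19; the groups did not overlap, but the change was not called (log2 fold change -0.17, limma adjusted p = 0.0938).

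The class sums show where the collagen message lay. Fibrillar chains summed to 68.8 ± 2.04 FPKM in sgControl and 109.9 ± 10.4 in sgH2AC19 (SD, n = 3 each), a ratio of 1.60 that was 1.51 without sgH2AC19 replicate 3. Most of the fibrillar sum was COL5A2 and COL5A1 in both groups. Basement membrane chains summed to 90.6 ± 1.60 and 102 ± 2.45 FPKM, and the other chains to 20.4 ± 0.554 and 20.7 ± 0.550. COL5A2 alone supplied 27.6% of the summed FPKM of all chains in sgControl and 33.9% in sgH2AC19. COL7A1 made up 14.7% of that sum in sgControl and 12.5% in sgH2AC19, and COL4A5 12.5% and 10.1%. The sum itself was 179.8 ± 2.91 FPKM in sgControl and 232.2 ± 13.4 in sgH2AC19, so a share could fall without a fall in level. The mean FPKM of COL7A1 (26.5 and 28.8) and COL4A5 (22.5 and 23.3) were higher in sgH2AC19, and neither change was called.

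**Figure D4:**
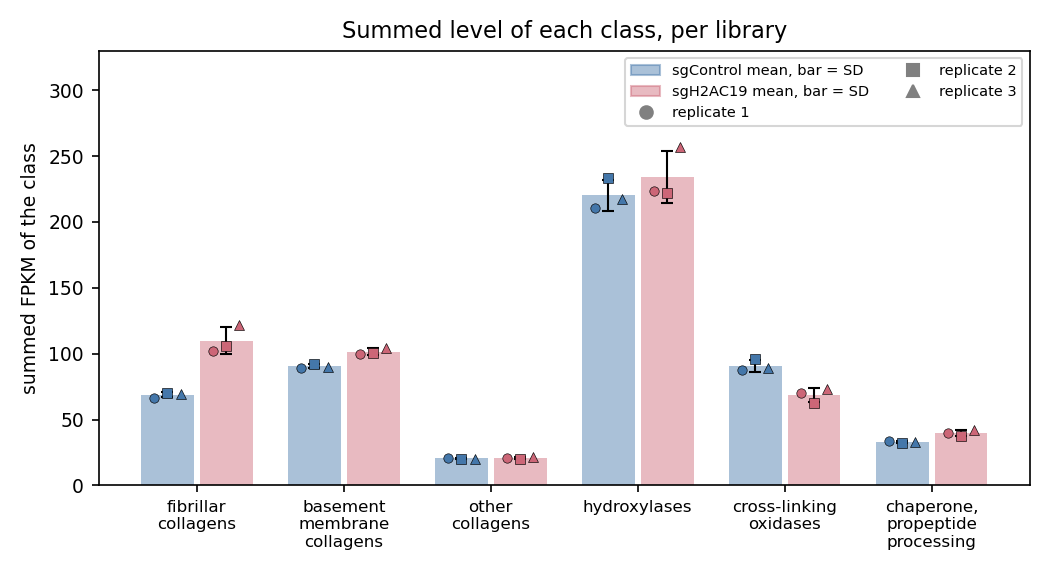
Summed FPKM of the 6 classes of members, with bars for the group mean, error bars for the SD over 3 libraries and 1 point per library. Summed fibrillar chains are higher and summed cross-linking oxidases lower in every sgH2AC19 library, whereas hydroxylase sums overlap.

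Prolyl 4-hydroxylase is a tetramer of catalytic alpha subunits (P4HA1, P4HA2 or P4HA3) and the beta subunit P4HB, which is also protein disulfide isomerase. P4HA3, the least abundant of the alpha subunits in sgControl, had the largest log2 fold change of the 28 members that passed the filter. Its FPKM were 5.48, 5.82 and 5.55 in sgControl and 12.9, 13.1 and 13.5 in sgH2AC19, a 2.34-fold ratio of the means (log2 fold change 1.10, SE 0.046, limma adjusted p = 8.8e-05). The groups were separated by more than the whole range within either. In sgH2AC19 its FPKM were above those of P4HA2. P4HA2 had 7.78, 8.97 and 8.30 FPKM in sgControl and 6.80, 6.29 and 8.72 in sgH2AC19 (log2 fold change -0.19, limma adjusted p = 0.254). That order depends on gene length, taken as 3990 bases for P4HA3 and 10128 for P4HA2. Reads recovered in sgH2AC19 were fewer for P4HA3 (2346, 1866 and 2051) than for P4HA2 (3152, 2274 and 3354).

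P4HA1, the main alpha subunit in most cells, had 62.7, 73.3 and 66.1 FPKM in sgControl and 59.9, 58.0 and 74.2 in sgH2AC19 (log2 fold change -0.08, 95% interval -0.31 to 0.16, limma adjusted p = 0.614). P4HB had 46.4, 48.4 and 45.5 FPKM in sgControl and 52.3, 49.8 and 52.9 in sgH2AC19; the groups did not overlap, and the log2 fold change of 0.14 was not called (limma adjusted p = 0.0613). For P4HA1 and P4HA2, sgH2AC19 replicates 1 and 2 were below every sgControl library and replicate 3 was not. Without replicate 3 the log2 fold change of P4HA1 was -0.19 (limma adjusted p = 0.0856) and that of P4HA2 was -0.31 (limma adjusted p = 0.0201), a call that the full comparison did not make.

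The lysyl hydroxylases gave no call. PLOD2, which hydroxylates lysines of the telopeptides and so sets the type of cross-link, had 57.6, 66.8 and 61.5 FPKM in sgControl and 60.6, 66.9 and 73.8 in sgH2AC19 (log2 fold change 0.11, 95% interval -0.08 to 0.31, limma adjusted p = 0.368). PLOD1, which acts on the helix, had 22.9, 23.1 and 23.3 FPKM in sgControl and 24.1, 21.2 and 26.5 in sgH2AC19 (log2 fold change 0.04, limma adjusted p = 0.713). PLOD3, which also glycosylates hydroxylysine, had a log2 fold change of 0.04 (limma adjusted p = 0.647). All 3 had overlapping groups. Without sgH2AC19 replicate 3 the log2 fold changes of PLOD2, PLOD1 and PLOD3 were 0.041, -0.028 and 0.011.

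**Figure D5:**
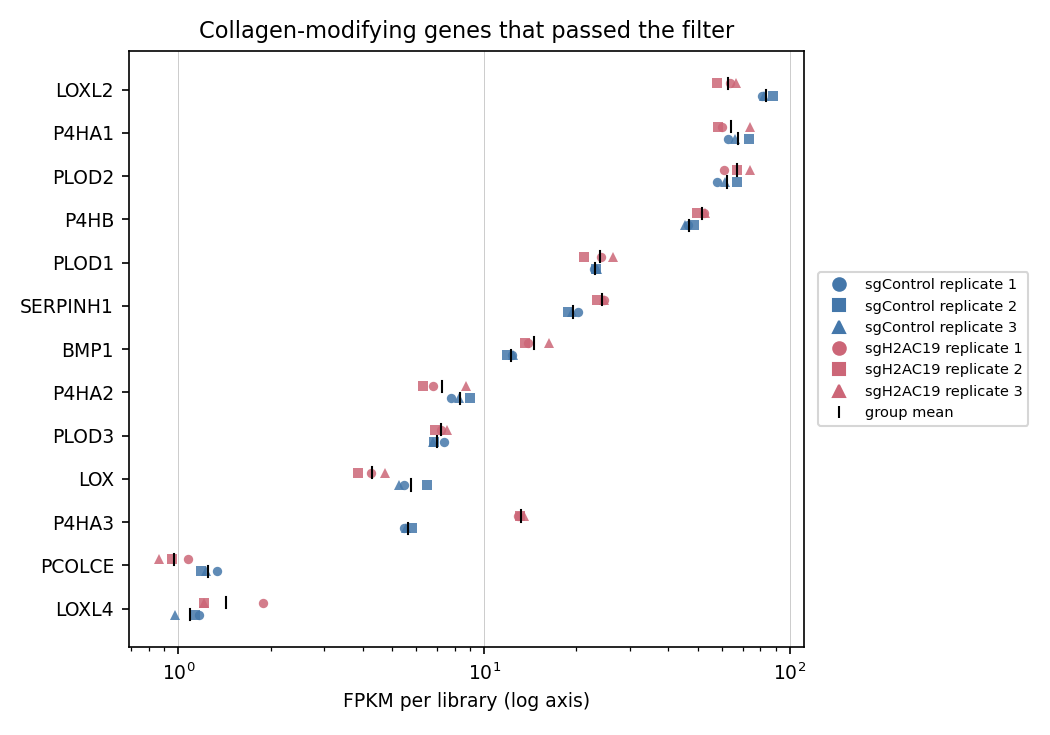
FPKM of the 13 collagen-modifying genes that passed the filter (log axis), 1 point per library and a tick at each group mean, ordered by level in sgControl. The sgH2AC19 points of P4HA3 lie to the right of its sgControl points, and those of LOXL2 and LOX lie to the left.

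Of the 5 cross-linking oxidases 3 passed the filter, and LOXL2 and LOX fell. LOXL2, which cross-links type IV collagen in particular, had the highest FPKM of all 59 members in sgControl. In recovered reads of sgControl, PLOD2 (104903) and P4HB (60573), with longer lengths, were above LOXL2 (58358). LOXL2 had 80.7, 88.3 and 82.3 FPKM in sgControl and 63.8, 57.5 and 66.7 in sgH2AC19. It fell by 0.41 on the log2 scale (SE 0.065, limma adjusted p = 0.00557), and the groups did not overlap. LOX, which acts on fibrillar collagen and elastin and whose promoter is shown above, had 5.46, 6.52 and 5.26 FPKM in sgControl and 4.27, 3.85 and 4.72 in sgH2AC19. It fell by 0.35 on the log2 scale (SE 0.090, limma adjusted p = 0.0306), and the call was lost in 6 of 13 alternatives. LOXL4 had 1.17, 1.13 and 0.973 FPKM in sgControl and 1.88, 1.21 and 1.22 in sgH2AC19, with replicate 1 far above the others of its group and no overlap between groups (log2 fold change 0.21, limma adjusted p = 0.242, and 0.082 without that library). The 5 oxidases summed to 90.8 ± 4.63 FPKM in sgControl and 68.6 ± 5.21 in sgH2AC19, a ratio of 0.755, and most of that sum was LOXL2.

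Of the chaperone and the propeptide-processing genes, SERPINH1 rose. It had 20.2, 18.8 and 19.4 FPKM in sgControl and 24.6, 23.3 and 24.7 in sgH2AC19. The log2 fold change was 0.30 (SE 0.047, limma adjusted p = 0.00570), and the groups did not overlap. BMP1, the procollagen C-proteinase, had 12.3, 11.9 and 12.4 FPKM in sgControl and 13.9, 13.6 and 16.3 in sgH2AC19. Its groups did not overlap either, but its log2 fold change of 0.24 was just outside the threshold (limma adjusted p = 0.0504, and 0.0354 with a log2 fold change of 0.16 without sgH2AC19 replicate 3). PCOLCE, which enhances that cleavage, had 1.34, 1.19 and 1.23 FPKM in sgControl and 1.07, 0.955 and 0.865 in sgH2AC19 (log2 fold change -0.20, limma adjusted p = 0.112).

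The other 31 members did not pass the filter, and 16 of them were under 0.1 FPKM in every library. Because the values are whole multiples of what 1 read is worth, reads could be recovered, and a limma-voom fit over the 19386 genes with at least 10 reads in at least 3 libraries, of which 19.9% were called, tested 16 of these members. COL3A1, the fibrillar chain of type III collagen, had 4, 11 and 9 reads in sgControl and 30, 39 and 22 in sgH2AC19 (log2 fold change 1.86, SE 0.49, limma-voom adjusted p = 0.0165). COL21A1, a fiber-associated chain, had 182, 161 and 134 reads in sgControl and 319, 187 and 285 in sgH2AC19 (log2 fold change 0.69, limma-voom adjusted p = 0.0169). Both were higher in every sgH2AC19 library.

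Another 3 low members fell in the same fit. COL13A1, a transmembrane collagen, had 150, 131 and 145 reads in sgControl and 85, 36 and 87 in sgH2AC19 (log2 fold change -1.14, limma-voom adjusted p = 0.00633). COL28A1 had 34, 29 and 26 reads in sgControl and 16, 8 and 14 in sgH2AC19 (log2 fold change -1.25, limma-voom adjusted p = 0.0390). LOXL1, known for elastic fibers, had 10, 12 and 22 reads in sgControl and 6, 3 and 3 in sgH2AC19 (log2 fold change -1.76, limma-voom adjusted p = 0.0435), and passed the filter on reads only through sgControl. The groups did not overlap for any of these genes.

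A further 11 were tested on reads and not called. They were the fibrillar chains COL11A1, COL11A2 and COL5A3 (at most 0.371, 0.472 and 0.102 FPKM in a library), the basement membrane chains COL4A3 and COL15A1 (0.632 and 0.376), and COL17A1 (0.529), COL20A1 (0.113), COL22A1 (0.242), COL26A1 (0.374), COL9A2 (0.0916) and LOXL3 (0.185). The last 15 had at most 18 reads in a library and were not tested. They were COL1A2, COL2A1 and COL24A1 among the fibrillar chains (0.00518, 0.0538 and 0.0183 FPKM at most), with COL6A3, COL6A5 and COL6A6 of type VI (0.0305, 0.00576 and 0.0159) and COL8A1 and COL8A2 of type VIII (0.00269 and 0.0468). The others were COL9A1 and COL9A3 of type IX (0.0147 and 0.0816), COL10A1 (0.0412), COL14A1 (0.0207), COL19A1 (0.00509), COL23A1 (0.0201) and COL25A1, which was listed at 0 in all libraries.

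Further genes of the pathway were followed in 3 lists of 49 genes, of which 30 passed the filter, 9 rose and 2 fell (23.1% of all genes tested were called). Of 22 tested genes that assist collagen folding, glycosylation and export, 6 rose and 1 fell. The mean levels of the endoplasmic reticulum prolyl isomerases FKBP9, FKBP7 and FKBP14 went from 33.9 ± 1.05 to 43.4 ± 1.96, from 1.04 ± 0.0463 to 1.85 ± 0.102 and from 6.67 ± 0.134 to 8.83 ± 0.732 FPKM (SD, n = 3). COLGALT1, the collagen galactosyltransferase, went from 21.1 ± 0.984 to 26.7 ± 1.70 FPKM. SEC24D, a component of the coat of export vesicles, fell by 0.37 on the log2 scale (limma adjusted p = 0.00807).

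Of 7 collagen receptors and uptake genes tested, 2 rose and 1 fell. ITGA2, the alpha subunit of the collagen-binding integrin with ITGB1, had 89.4, 91.2 and 92.5 FPKM in sgControl and 50.1, 49.7 and 47.2 in sgH2AC19 (log2 fold change -0.88, SE 0.041, limma adjusted p = 0.000114). Its partner ITGB1 had a log2 fold change of 0.14 (limma adjusted p = 0.0473) and MRC2, a receptor for collagen uptake, one of 0.33 (limma adjusted p = 0.00975). Of 7 small leucine-rich proteoglycans that bind collagen, 1, LUM, passed the filter, with 2.81 ± 0.299 FPKM in sgControl and 3.97 ± 0.434 in sgH2AC19 (limma adjusted p = 0.0208).

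Markers of other cell types were read beside these results. Summed FPKM of 9 fibroblast markers were between 175.6 and 180.6 in sgControl and between 153 and 168 in sgH2AC19, mostly from VIM and FN1. Of the 9, 4 passed the filter, among them LUM, POSTN was at 0 in every library, and PDGFRA, PDGFRB, DCN and FAP were at most 0.222 FPKM. VIM fell (log2 fold change -0.33) and LUM rose. The sum of the 8 markers without VIM, taken after the values had been seen, was between 49.5 and 57.0 FPKM in sgControl and between 54.3 and 63.1 in sgH2AC19. Most of that sum was FN1, with 52.5, 45.7 and 47.1 FPKM in sgControl and 57.7, 48.5 and 58.0 in sgH2AC19. FN1 was not called (log2 fold change 0.17, limma adjusted p = 0.181). The part of such cells in the collagen results was not tested. The 8 epithelial markers summed to between 835 and 865 FPKM in sgControl and between 965 and 1012 in sgH2AC19, mostly from KRT18, KRT8 and KRT7. Of the 7 tested, EPCAM, CDH1, KRT8 and KRT18 rose and KRT7, KRT19 and CLDN4 fell (23.1% of all genes tested were called). CLDN4 passed the filter only through sgControl, the group where it was high. With its sgH2AC19 libraries at 0.898, 0.787 and 0.784 FPKM, it could be tested only where sgControl was the higher group. The 7 endothelial markers summed to at most 0.269 FPKM, and 1 of 7 leukocyte markers passed the filter, CD14.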

How the data were processed

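Per the labels' protocols, total RNA of A549 went into a SMARTer mRNA-seq library kit. The authors computed FPKM per gene and library, per the file headers, and deposited them in 1 table. Its columns are headed sgNC and sgH2AC with a number, and were taken as the sgControl and sgH2AC19 replicates of the same number. The aligner, annotation and counting strand were not given in the sources used here. The builds named, GRCm38 and mm10 per the submitters' processing notes, are those of the mouse, but all 62700 gene IDs are human. Without the strand, reads of overlapping antisense genes cannot be told apart.

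Read totals were recovered from the spacing of FPKM at GENCODE 29 gene lengths. 12869 of 12871 tested genes came out as whole reads, within 0.001, and 3759 of them did so at the GENCODE 29 length. For the others the shortest length that gave whole reads was taken. Where that length was too short, the recovered reads are too few by a common factor. The main test was limma-trend (limma 3.58.1 under R 4.3.3) on log2(FPKM + 1), for genes at 1 FPKM or more in at least 3 libraries, two-sided, with Benjamini-Hochberg adjustment over all of them at 0.05. It was tested on simulated data. Ratios of chains were compared on log2 values by exact permutation of libraries (scipy 1.17.1). Alternatives were 2 other scalings, voom on the recovered reads, other filters, a pseudocount of 0.1, the replicate number as a block and leaving out each library. The fit on genes with at least 10 reads was added after seeing the data. The permutation tests of the ratios were not planned, as the plan gave ratios per library as a description only.

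Tested members are all named, with values per library for called ones and those at a mean of at least 10 FPKM. Some other members were given values per library after they had been seen. From each of the other lists the called genes with the smallest adjusted p are named. The members and lists were chosen with earlier results of these data known. Sequences are from RefSeq.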

Additional observations from a re-analysis of the deposited data

How the results depend on the processing

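Of the 14 members called, 8 kept their call in all 13 alternatives (COL1A1, COL4A6, COL5A1, COL5A2, COL12A1, LOXL2, P4HA3 and SERPINH1), except that COL1A1 did not pass the filter without any one sgH2AC19 library. With all genes above 0 FPKM, 1553 genes were called in place of 2967, with 5 chains higher, 1 modifying gene lower and 5 other pathway genes higher, over a larger number of genes tested. With voom on recovered reads 3540 genes were called and 4 modifying genes were higher, BMP1 and P4HB being added, and COL16A1 was called lower (log2 fold change -0.25, adjusted p = 0.0402). Leaving out each library gave 1513 to 3429 genes called, 5 to 6 chains higher and 0 to 2 lower, 2 to 3 modifying genes higher and 1 to 3 lower, and 5 to 8 other pathway genes higher. Without sgControl replicate 1, COL6A1 was not called (adjusted p = 0.0531), and COL6A2 was not called without sgControl replicate 1 or 2 (0.0581 and 0.0591). The log2 fold changes that changed sign were small: COL18A1 ran from -0.151 to 0.0779, COL4A2 from -0.0752 to 0.0682 and PLOD1 from -0.0283 to 0.124 when libraries were left out. With the replicate number as a block, 2729 genes were called, 1 modifying gene was lower, COL27A1, COL4A4 and LOX lost their calls and BMP1 was called. After each gene's group mean was subtracted, the deviations of same-numbered libraries correlated at 0.05, 0.03 and 0.06. The numbers were therefore not taken as pairs, although the deviations of each library correlated best with those of its own number. Other scalings moved the median of all genes by less than 0.1 on the log2 scale, and COL4A1 lost its call under both (adjusted p = 0.0612 and 0.0575). Low counts, with 10 reads reached in fewer than 3 libraries, limit what can be seen of the 15 chains left untested. The cause of the differences between alternatives was not tested.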
